A study of Mus musculus with 12 samples.

Results

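*Lcn2* and 9 genes of acute-phase proteins (*Saa1*, *Saa2*, *Saa3*, *Saa4*, *Orm1*, *Orm2*, *Hp*, *Hpx* and *Itih4*) were followed through 12 mouse RNA sequencing libraries. They were chosen by gene symbol, as 10 of the 55335 genes in the table of counts, and each symbol was listed once. The study asked how thyroid-stimulating hormone (TSH) acts on macrophages and on insulin resistance, and compared mice in which the TSH receptor gene *Tshr* was deleted in myeloid cells with littermates that kept it. The control genotype was *Tshr* f/f, in which loxP sites flank the end of the coding region of *Tshr* and no Cre is present. The deleted genotype, *Tshr* MKO, was *Tshr* f/f with Lyz2-Cre, a Cre driven by the lysozyme 2 gene of macrophages, monocytes and neutrophils, on a C57BL/6N background. Bone-marrow-derived macrophages (BMDMs) of male mice aged 6 weeks were grown for 7 days with 10 ng/mL M-CSF, and BMDMs of both genotypes were then given 1 ng/mL TSH for 24 h, with no library without TSH. Livers came from male mice that were 6 weeks old when a high-fat diet (HFD) began and that were fed it for 9 weeks, and both genotypes were fasted for 8 h and then given insulin (1.5 U/kg) 5 min before collection. Each of the 4 groups had 3 libraries (n = 3).

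Acute-phase proteins are plasma proteins whose production by hepatocytes rises during infection or injury. Interleukin 6 acts on their genes through STAT3, while interleukin 1 and TNF act through NF-κB and C/EBP factors. Lipocalin 2 (*Lcn2*) binds bacterial siderophores and so withholds iron, and it is made by hepatocytes, macrophages and neutrophils. The serum amyloid A proteins *Saa1* and *Saa2* travel on high-density lipoprotein, *Saa3* is the form made mainly outside the liver, and *Saa4* is known as the constitutive form. Orosomucoids (*Orm1*, *Orm2*) bind drugs and lipids, haptoglobin (*Hp*) binds free haemoglobin, haemopexin (*Hpx*) binds free haem, and *Itih4* belongs to the inter-alpha-trypsin inhibitor heavy chains.

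The promoters are shown as background on the STAT, NF-κB and C/EBP factors named above, and no link between a motif and the levels was tested. RefSeq promoters (GRCm38.p6) were at hand for 8 of the 10 members, and the 250 bases before the transcription start were searched on both strands. The C/EBP motif TTGCNNAA was present in 7 of these 8, all but *Itih4*, against 9.56% of the 32851 promoters of the table. The STAT motif TTCNNNGAA was found in *Itih4* alone among the 8 (7.02% of all promoters). The NF-κB consensus (3.9% of all) and the EGR motif GCGNGGGCG (4.7% of all) had no match in the 8. None of the matches overlapped another. The C/EBP matches are given below in capitals with the bases around them, 5′ to 3′ on the strand of the gene (those of *Saa3* and *Saa4* read on the opposite strand), and the *Lcn2* window lies in an exon of another *Lcn2* transcript in GENCODE.
*Lcn2* (chr2:32387937-32387966, minus strand): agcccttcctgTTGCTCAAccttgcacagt
*Saa1* (chr7:46743144-46743173, minus strand): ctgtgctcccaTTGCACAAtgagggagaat
*Saa2* (chr7:46751639-46751668, plus strand): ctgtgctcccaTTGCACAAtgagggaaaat
*Saa3* (chr7:46715757-46715786, minus strand): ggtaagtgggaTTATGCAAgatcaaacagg
*Saa4* (chr7:46732637-46732666, minus strand): accaggaaggaTTGAGCAAgagggactctg
*Orm2* (chr4:63362318-63362347, plus strand): gagagaacattTTGCGCAAgacatttccca
*Hpx* (chr7:105600298-105600327, minus strand): tggctggaaatTTGCTGAAgggggtagggg

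*Saa4* had another match, 245 bases before its start. *Saa1* and *Saa2* lie head to head on chromosome 7 and carried the same 8 bases, at 182 and 183 bases before their starts. Over the 250 bases their promoters were 94.8% identical (238 of 251 aligned positions), against 51.2% for *Saa1* and *Saa4*. The whole window is given for *Saa1* and *Orm2*, and the first 207 bases for *Saa2*, whose remaining bases lie in an annotated exon. These genes had the widest range across livers, and capitals again mark the C/EBP match.
*Saa1* (chr7:46742981-46743230, minus strand): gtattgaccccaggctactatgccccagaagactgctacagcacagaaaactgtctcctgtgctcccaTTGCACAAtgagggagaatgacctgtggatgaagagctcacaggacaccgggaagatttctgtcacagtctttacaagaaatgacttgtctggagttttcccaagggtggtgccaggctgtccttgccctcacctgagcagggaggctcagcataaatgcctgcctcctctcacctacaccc
*Saa2* (chr7:46751583-46751789, plus strand): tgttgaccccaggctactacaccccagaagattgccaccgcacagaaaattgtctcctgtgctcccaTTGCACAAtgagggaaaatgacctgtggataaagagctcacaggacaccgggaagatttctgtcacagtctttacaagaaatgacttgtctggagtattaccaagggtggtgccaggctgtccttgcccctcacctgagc
*Orm2* (chr4:63362199-63362448, plus strand): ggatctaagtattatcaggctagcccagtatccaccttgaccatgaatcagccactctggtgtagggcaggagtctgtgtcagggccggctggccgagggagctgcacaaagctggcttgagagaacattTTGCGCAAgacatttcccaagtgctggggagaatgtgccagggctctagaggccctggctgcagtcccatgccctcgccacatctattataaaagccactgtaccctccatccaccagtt

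Libraries held 33684000 to 40954200 counts in BMDMs and 28962900 to 40420500 in livers, rounded to the nearest 100. Levels are given as CPM, the counts of a gene scaled to a common library size, with TMM factors set within BMDMs or within livers, where 3 counts equal 0.0687 to 0.115 CPM in BMDMs and 0.0714 to 0.106 CPM in livers. *Tshr* had 7 counts over all 6 BMDM libraries and 0 over all livers, so the deletion could not be checked. *Tshr* f/f replicate 3 of the BMDMs stood apart in its scaling factor (0.738, against 0.993 to 1.11 in the other BMDMs). In livers, a table of receptor counts printed with the study lists these same libraries under the opposite genotype headings. The liver groups are therefore called by their labels, and each direction given for liver holds only as far as the labels do. The labels do not say whether libraries came from separate animals, while the methods of the study give n = 3 per group for the mice behind both kinds of sample. The p-values describe the spread between these libraries. In bulk RNA, fewer cells of a type and less RNA per cell cannot be told apart.

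*Lcn2* (ENSMUSG00000026822, chr2:32384633-32388252, minus strand, GRCm38) showed the widest genotype difference of the 5 members tested in BMDMs. Replicates 1 to 3 of the f/f genotype measured 22.5, 282 and 898 CPM. Those of the MKO genotype measured 4.60, 2.69 and 2.92 CPM. All MKO libraries were below all f/f libraries, the MKO values lay close together and the f/f values spanned 39.9-fold. The log2 fold change was -6.88 (SE 1.37, 95% interval -10.18 to -3.58, edgeR adjusted p = 0.218). Without f/f replicate 3 it was -5.47 (adjusted p = 0.134).

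*Saa3* (chr7:46711998-46715700, minus strand), the serum amyloid A of macrophages and adipose tissue, was the most abundant member in BMDMs. Its values were 2672, 6913 and 15071 CPM in *Tshr* f/f and 747, 426 and 1117 CPM in *Tshr* MKO. The groups did not overlap, and f/f replicate 3 was again the highest. The log2 fold change was -3.43 (SE 0.72, edgeR adjusted p = 0.218), and -2.65 without f/f replicate 3.

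*Hp* (chr8:109575128-109579172, minus strand), which myeloid cells make as well as hepatocytes, measured 349, 282 and 822 CPM in the f/f libraries and 129, 140 and 258 CPM in the MKO libraries. Here too every MKO library was below every f/f library, though the highest MKO value was close to the lowest f/f value. The log2 fold change was -1.46 (SE 0.49, edgeR adjusted p = 0.239), and -0.85 without f/f replicate 3. *Orm1* (chr4:63344560-63348163, plus strand) was near the limit of detection, with 19, 57 and 41 counts in f/f and 10, 0 and 7 in MKO. Its groups did not overlap (log2 fold change -2.92, SE 0.97, edgeR adjusted p = 0.237). *Hpx* (chr7:105591613-105600137, minus strand) had 13, 54 and 13 counts against 0, 5 and 20, with overlap between the groups (log2 fold change -1.72, SE 1.10, edgeR adjusted p = 0.428). It was -0.97 without f/f replicate 2 and -3.32 without MKO replicate 3.

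**Figure D1:**
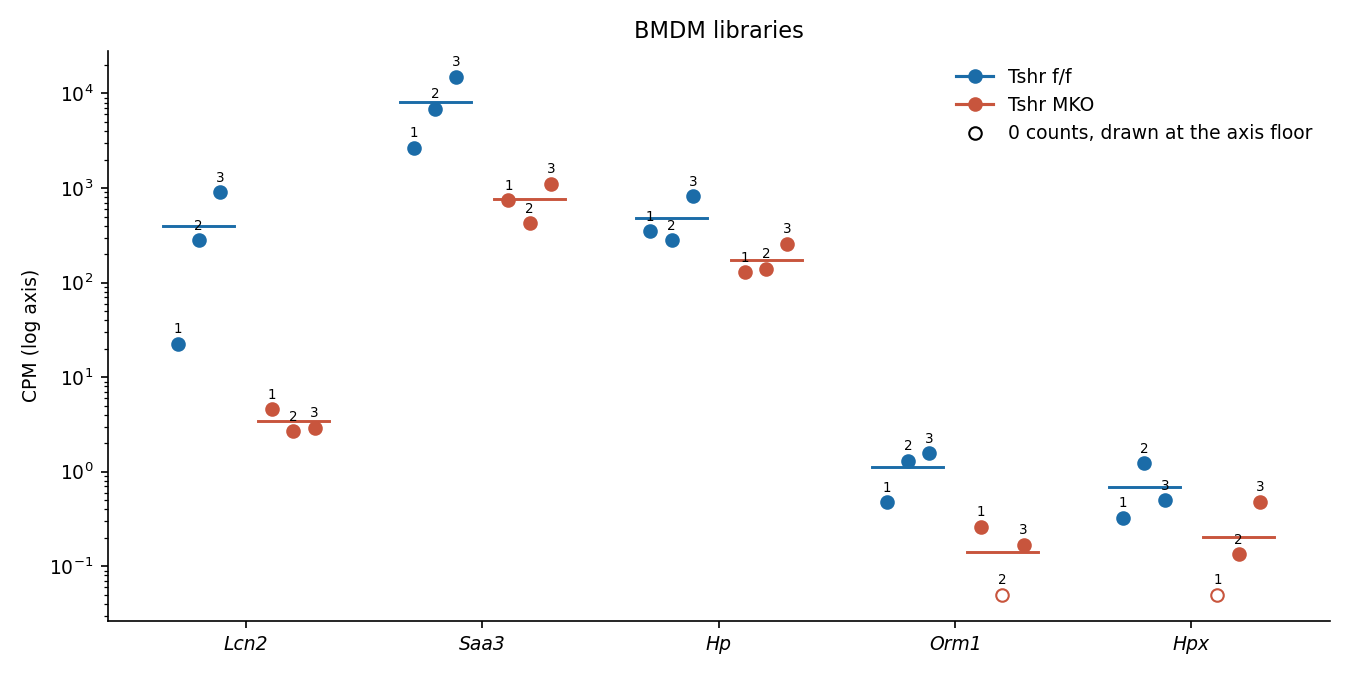
CPM on a log axis of the 5 members tested in BMDMs, with a point for each library marked by its replicate number, a line at each group mean (n = 3) and open circles at the axis floor for libraries with 0 counts. The *Tshr* MKO points of *Lcn2* sit between 2.69 and 4.60 CPM, and the f/f points between 22.5 and 898 CPM.

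The other members were too low in BMDMs to be tested. *Saa1* had 2, 5 and 29 counts in f/f and 5, 8 and 0 in MKO. *Saa2* had 3 counts in f/f replicate 3 and 0 elsewhere, and *Saa4* had 2 counts in f/f replicate 2 and 0 elsewhere. *Orm2* had 0 counts in all 6 libraries and *Itih4* had 4 and 5 counts in MKO replicates 1 and 2 only. No fold is given for them.

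Of the 5 members tested in BMDMs, 0 passed an adjusted p under 0.05 with edgeR, as did 0% of the 15372 genes tested. *Orm1* and *Hpx* reached the level of the low-count filter in all 3 f/f libraries but in only 1 MKO library. They thus entered the test through the group where they were higher, and the next count leaves them out. The other 3, *Lcn2*, *Saa3* and *Hp*, were all lower in *Tshr* MKO at the thresholds of the study (a 2-fold change or more with an unadjusted p under 0.05). Of the 13430 genes at that level in all 6 libraries, 5.48% were. The groups of these 3 did not overlap, with MKO lower, as was so for 14% of all genes tested. DESeq2 gave *Lcn2*, *Saa3*, *Orm1* and *Hp* an adjusted p under 0.05 (4.56% of all genes were lower by that rule), with 1.01e-09, 1.64e-05, 0.0376 and 0.0436 in that order. *Orm1* again entered that test through the f/f libraries. The MARS model that the study used sums the replicates, and it called 7 of the 9 members with counts, 17.5% of all genes as lower and 35.1% as higher. Over all 5 members tested, 4 passed the thresholds of the study with *Orm1* included (5.52% of all genes were lower by that rule). Without f/f replicate 3 the number was 2, and without any other library at least 3, with no share of all genes at hand for these fits. Scaling by library size alone moved the median of all genes from 0.01 to 0.17 on the log2 scale, and all 5 members stayed below it. Summed over the 10 members, f/f BMDMs held 3044 to 16794 CPM and MKO BMDMs 569 to 1378 CPM.

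Other acute-phase genes were counted from lists. Of 20 other positive acute-phase genes, 10 could be tested in BMDMs and 8 were lower in *Tshr* MKO, against 49.2% of all genes. Of these, 4 were so at the thresholds of the study, against 5.52% of all genes, and 0 at an adjusted p under 0.05. Their median log2 fold change was -1.30. Complement factor B (*Cfb*) had 3484, 3227 and 8651 CPM in f/f and 558, 483 and 824 CPM in MKO (log2 fold change -3.04, edgeR adjusted p = 0.218). Complement *C3* was also without overlap (-1.56), while the interleukin 1 receptor antagonist *Il1rn* (-4.31), metallothionein *Mt2* (-2.30) and the protease inhibitor *Serpina3n* (-1.04) overlapped between groups. Without f/f replicate 3 *Il1rn* was at -0.87 and *Mt2* at -1.45. *Orm3*, the near neighbour of *Orm1* and *Orm2*, had 0 counts in BMDMs. Of the 8 negative acute-phase genes, whose plasma products fall in the acute phase, only *Trf* and *Igf1* could be tested. Both were higher in MKO (1.90 and 1.07), as were 50.8% of all genes.

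Cytokines that induce these genes were measured in the same BMDMs. All 13 listed cytokines and receptors could be tested, and 11 were lower in *Tshr* MKO (49.2% of all genes were), 5 of them at the thresholds of the study (5.52% of all genes). The median of the list was -0.82. *Il6* had 58.6, 25.2 and 1454 CPM in f/f and 0.392, 0.293 and 1.98 CPM in MKO. It did not overlap between groups (log2 fold change -9.16, SE 2.13, edgeR adjusted p = 0.218), and neither did *Lif* (-4.61), *Tnf* (-5.15), *Il1a* (-5.67) or *Il1b* (-6.11). For each of these, as for *Lcn2* and *Saa3*, f/f replicate 3 was the highest library. Without it the log2 fold changes were -5.55 for *Il6*, -3.08 for *Lif*, -2.93 for *Tnf*, -2.83 for *Il1a* and -3.41 for *Il1b*.

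Of 14 transcription factors and feedback inhibitors, 12 could be tested in BMDMs, with 8 lower and 1 higher at the thresholds of the study, as were 5.52% and 3.3% of all genes. *Cebpa*, the C/EBP factor of resting hepatocytes and differentiating myeloid cells, was higher in *Tshr* MKO (1.96, edgeR adjusted p = 0.218). *Cebpb*, the C/EBP factor of the acute phase, was lower (-1.12), as were the NF-κB cofactor *Nfkbiz* (-3.17) and the STAT3-induced inhibitor *Socs3* (-3.21), all 3 without overlap. Without f/f replicate 3 these were -0.67, -1.68 and -1.5. *Egr1* overlapped between groups (-0.77). Among 10 receptors and partners of the member proteins, 4 were lower and 2 higher in MKO at an unadjusted p under 0.05, as were 10.2% and 7.73% of all genes. *Fpr2*, a receptor for serum amyloid A, was lower (-3.54), as was *Mmp9* (-1.90), the protease that lipocalin 2 binds. The haptoglobin receptor *Cd163* (1.02) and the lipoprotein receptor *Scarb1* (0.75) were higher. None of these lists had a gene with an adjusted p under 0.05 by edgeR.

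Cell type markers were set beside these values. Of 8 hepatocyte markers, *Alb* and *Ttr* had 0 counts in every BMDM library and the summed level of the list was 0 to 0.126 CPM in f/f and 0 to 0.235 CPM in MKO. The 8 macrophage markers were all present, at 15164 to 17914 CPM in f/f and 20167 to 29713 CPM in MKO. *Lyz2*, whose promoter drives the Cre, was among them and was higher in MKO (0.95), so the macrophage sums did not overlap between genotypes. The 12 neutrophil markers, a cell type that also makes *Lcn2* and *Hp*, summed to 21.4, 367 and 67.8 CPM in f/f and 33.1, 20.4 and 118 CPM in MKO, and most of the highest value was *Mmp8* (334 CPM). Of the 7 neutrophil markers tested, 2 were lower and 2 higher in MKO at the thresholds of the study, as were 5.52% and 3.3% of all genes. Of the 3 at the level of the filter in all 6 libraries, 1 was lower and 0 higher (5.48% and 2.81% of such genes). The granule genes *Camp* (-3.23, edgeR adjusted p = 0.218, without overlap) and *S100a8* (-2.37, edgeR adjusted p = 0.242, with overlap) were lower. *Retnlg* had 2 to 3 counts in f/f and 21 to 71 in MKO, and *Mpo* had 2 to 14 in f/f and 14 to 37 in MKO. *Camp*, *Retnlg* and *Mpo* were under 3 CPM in every library and, like *Orm1*, reached the level of the filter in all 3 libraries of only 1 genotype. *Cxcr2* was at 0 counts in all f/f libraries and *Ly6g* in 4 of 6 libraries. The neutrophil sums overlapped between genotypes and were not in the order of *Lcn2*. Within f/f, the order of the sums rested on the *Mmp8* value of replicate 2. The part of either marker list in the differences of the members was not tested.

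In liver, *Lcn2* was again lower in the group labelled MKO, but the groups overlapped. Livers labelled *Tshr* f/f had 1286, 91.6 and 225 CPM, and livers labelled *Tshr* MKO had 43.3, 28.1 and 137 CPM. f/f replicate 1 was 5.72-fold above the next liver, and f/f replicate 2 was below MKO replicate 3. The log2 fold change was -2.94 (SE 1.10, 95% interval -5.58 to -0.31, edgeR adjusted p = 0.437), and -1.21 without f/f replicate 1.

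*Saa1* (chr7:46740497-46742980, minus strand) had 8155, 360 and 1562 CPM in livers labelled f/f and 101, 176 and 651 CPM in livers labelled MKO. *Saa2* (chr7:46751790-46754313, plus strand) had 8956, 101.8 and 1921 CPM against 35.8, 68.3 and 322 CPM. In both, f/f replicates 1 and 3 were the highest livers and f/f replicate 2 fell within the MKO range. The log2 fold changes were -3.44 for *Saa1* (SE 1.25, edgeR adjusted p = 0.431) and -4.69 for *Saa2* (SE 1.63, edgeR adjusted p = 0.420). Without f/f replicate 1 they were -1.66 and -2.87. *Saa2* spanned 250-fold between livers, the widest range of the 10 members. *Saa3* was low in liver, with 18.6, 6.31 and 16.0 CPM against 2.74, 4.40 and 10.9 CPM (log2 fold change -1.18, SE 0.60, edgeR adjusted p = 0.539).

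*Saa4* (chr7:46727998-46732603, minus strand), the constitutive form, did not follow the other genes. It had 1117, 1507 and 425 CPM in livers labelled f/f and 752, 1074 and 1382 CPM in livers labelled MKO. Its lowest liver was f/f replicate 3, which was the second highest for the 9 other members. The log2 fold change was 0.07 (95% interval -1.02 to 1.17, edgeR adjusted p = 0.978). It was -0.30 without f/f replicate 3 and -0.15 without MKO replicate 3, so its sign was not fixed.

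*Orm2* (chr4:63362449-63365878, plus strand) had 1259, 25.6 and 165 CPM in livers labelled f/f and 27.5, 13.5 and 29.8 CPM in livers labelled MKO. The log2 fold change was -4.36 (SE 1.35, edgeR adjusted p = 0.375), and -2.04 without f/f replicate 1. Its neighbour *Orm1* had 2704, 415 and 1012 CPM against 528, 487 and 614 CPM. The lowest liver for *Orm1* was f/f replicate 2, and the difference was smaller (-1.34, SE 0.62, edgeR adjusted p = 0.502, and -0.41 without f/f replicate 1). *Orm3* had 34.9, 1.41 and 2.22 CPM against 5.64, 2.14 and 4.60 CPM, with f/f replicate 1 alone standing out (-1.64, edgeR adjusted p = 0.686, and 1.17 without that liver).

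The abundant members differed less. *Hp* had 19516, 5679 and 8731 CPM in livers labelled f/f and 4420, 4858 and 5805 CPM in livers labelled MKO (log2 fold change -1.17, SE 0.44, edgeR adjusted p = 0.437). *Hpx*, which clears haem, had 14611, 4075 and 7216 CPM against 3427, 3708 and 4116 CPM (-1.20, SE 0.44, edgeR adjusted p = 0.430). For both, the MKO livers lay within 1.31-fold of each other and f/f replicate 2 was just below the highest of them. *Itih4* (chr14:30886476-30902353, plus strand) had 5851, 2282 and 4025 CPM against 2005, 1799 and 3541 CPM (-0.73, SE 0.40, edgeR adjusted p = 0.570). Without f/f replicate 1, the differences were -0.53 for *Hp*, -0.60 for *Hpx* and -0.38 for *Itih4*.

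**Figure D2:**
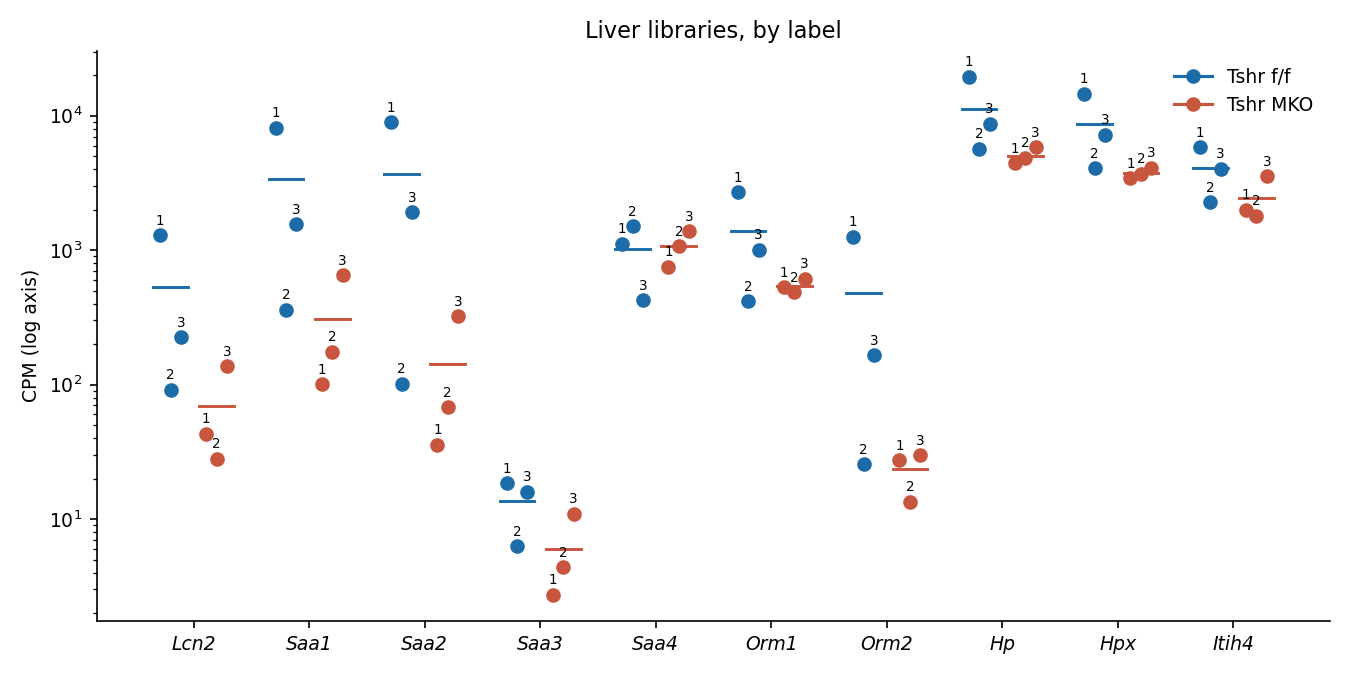
CPM on a log axis of the 10 members in livers grouped by label, with a point for each library marked by its replicate number and a line at each group mean (n = 3). *Tshr* f/f replicate 1 is the highest point of 9 members, and f/f replicate 2 lies among the MKO points for 8 members.

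All 10 members were tested in liver and 9 were lower in the group labelled MKO, as were 50.9% of all genes. By edgeR, 0 passed an adjusted p under 0.05, as did 0% of the 15062 genes tested. At the thresholds of the study, 6 of 10 were lower (*Lcn2*, *Saa1*, *Saa2*, *Orm2*, *Hp* and *Hpx*), against 0.856% of all genes, and 0 were higher, against 0.69%. No member had groups that did not overlap, against 17.3% of all genes in either direction. DESeq2 gave *Saa2* and *Orm2* an adjusted p under 0.05 (0.0435 and 0.0464, with 0.956% of all genes lower by that rule), and the MARS model called all 10 members, 18% of all genes as lower and 21.6% as higher. The 6 became 1 without f/f replicate 1, 1 without MKO replicate 1 and 0 without MKO replicate 2, and rose to 9 without f/f replicate 2. No share of all genes is at hand for these fits, so these numbers cannot be set against all genes.

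The top of the order of livers was shared between members. f/f replicate 1 was the highest liver and f/f replicate 3 the second for the 9 members other than *Saa4*, and MKO replicate 3 was the third. The lower places changed between members, with f/f replicate 2 last for *Orm1* and the fifth for *Orm2*. The members together took 5.66% of all counts in f/f replicate 1 (95% Wilson interval 5.65 to 5.66), 2.63% in f/f replicate 3 and 1.15% to 1.62% in the other livers. Summed, they reached 63473, 14543 and 25298 CPM in livers labelled f/f and 11342 to 16611 CPM in livers labelled MKO. Within livers whose sample ID begins with A (f/f replicates 1 and 2, MKO replicate 3), the mean of *Lcn2* differed by -2.33 on the log2 scale, and within those with B (f/f replicate 3, MKO replicates 1 and 2) by -2.65. The labels do not say what the letter stands for. By these means the 9 members were lower in the MKO livers within both letters, and *Saa4* was higher in both (0.08 and 1.10). Within A, however, f/f replicate 2 was below MKO replicate 3 for all 9, so the lower MKO mean there rests on f/f replicate 1. Within B there was only 1 f/f liver.

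**Figure D3:**
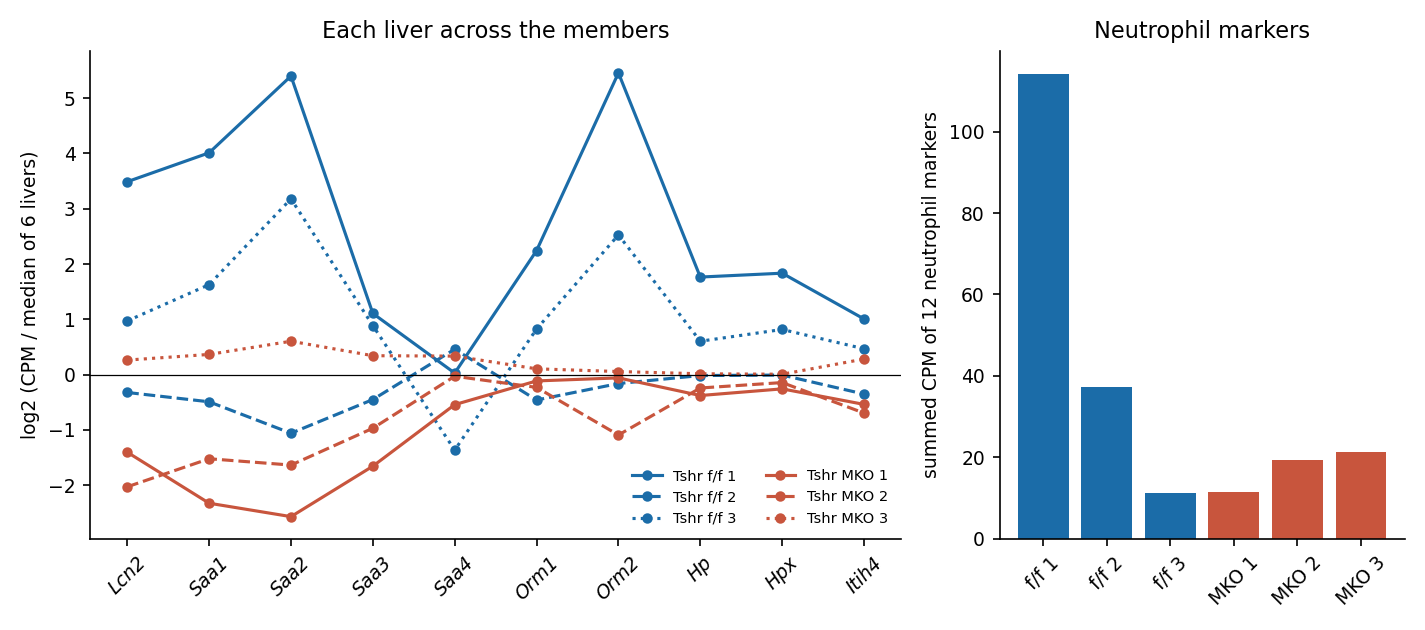
Left, log2 ratio of each liver to the median of the 6 livers for each member, with a line for each library. Right, summed CPM of 12 neutrophil markers in the same livers, as bars from 0. *Tshr* f/f replicate 1 is highest for 9 members and in the right panel, while f/f replicate 3 is second for 9 members and has the lowest neutrophil sum (11.2 CPM).

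*Saa1* and *Saa2* did not move in a fixed ratio. *Saa2* made up 52.3% of the counts of the pair in f/f replicate 1 (95% Wilson interval 52.2 to 52.5) and 55.1% in f/f replicate 3 (54.8 to 55.4). The shares were 22.1%, 26.2%, 27.9% and 33.1% in f/f replicate 2 and MKO replicates 1 to 3, so the livers with the highest levels of the pair had the highest share of *Saa2*. These intervals cover counting error only. Of the 50-base windows of the longest coding *Saa1* transcript, 13.2% also occur in *Saa2*, and 0% of its 100-base windows do. For *Orm1* and *Orm2* the figures were 20.4% and 6.95%, so reads of these genes could have been split in counting and their separate values are less certain. RefSeq lists *Saa1* as an older name of *Saa2* and the reverse, and the names here follow the gene identifiers of the table. With the counts of *Saa1* and *Saa2* summed, an analysis chosen after seeing the data, the log2 fold change in liver was -3.96 (SE 1.39, edgeR adjusted p = 0.422).

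**Figure D4:**
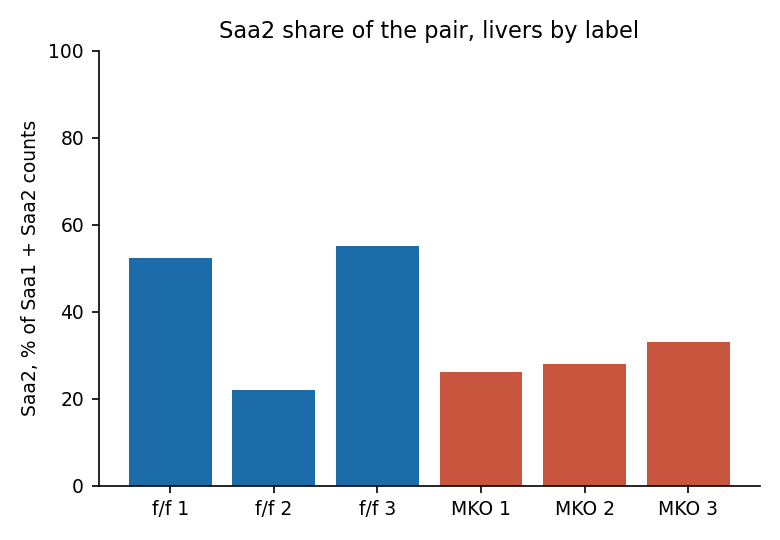
Share of *Saa2* in the summed counts of *Saa1* and *Saa2* in each liver, in percent, as bars from 0 by label and replicate. The bars of f/f replicates 1 and 3 exceed 50%, and the other 4 lie between 22.1% and 33.1%.

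Neutrophil markers moved with the members in part of the livers. Their sum was 114, 37.2 and 11.2 CPM in livers labelled f/f and 11.5, 19.3 and 21.3 CPM in livers labelled MKO. All 11 neutrophil markers tested were lower in MKO (50.9% of all genes were), 4 of them at the thresholds of the study (0.856% of all genes). However, 5 of the 11 did not reach the level of the filter in every liver. Among these was *Cd177*, which is one of the 4 and reached it in only 1 liver labelled MKO. Of the 6 that did, 3 were lower at those thresholds (0.728% of such genes). *Ly6g* had at most 2 counts in any liver. f/f replicate 1 was highest for these markers as for *Lcn2*, but f/f replicate 3, with the lowest sum, had the second highest *Lcn2*. *S100a9*, the marker with the highest level in every liver, had 29.1, 11.6 and 2.99 CPM against 4.36, 6.19 and 6.27 CPM. The 8 hepatocyte markers summed to 81053 to 105395 CPM in f/f and 95915 to 98851 CPM in MKO, and the 8 macrophage markers to 135 to 331 CPM and 133.1 to 305 CPM, with overlap in both. Kupffer cell markers summed to 230 to 605 CPM and 202 to 518 CPM. The part of any of these cells in the liver values was not tested.

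Of the 20 other positive acute-phase genes, all were tested in liver. In the group labelled MKO, 19 were lower (median -0.62 on the log2 scale), as were 50.9% of all genes. At an unadjusted p under 0.05, 3 were lower and 1 higher, as were 5.18% and 5.27% of all genes. At the thresholds of the study, 1 was lower and 1 higher, as were 0.856% and 0.69% of all genes. Serum amyloid P (*Apcs*) had 594, 70.2 and 208 CPM against 75.5, 76.9 and 113 CPM (-1.71, edgeR adjusted p = 0.473, and -0.67 without f/f replicate 1). *C3* (-0.86) and *Il1rn* (-0.74) were lower, *Serpina3n* was at -0.67, and the hepcidin gene *Hamp2* was higher (2.77), with 23.5 CPM in MKO replicate 1, and was at 0.82 without that liver. Of the 8 negative acute-phase genes, 5 were higher and 3 lower, as were 49.1% and 50.9% of all genes. Transthyretin (*Ttr*) had 3115, 3462 and 2904 CPM in f/f and 4255, 3874 and 4084 CPM in MKO, without overlap (0.37, edgeR adjusted p = 0.412).

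The inducing cytokines were scarce in liver. *Il6* had 0 to 11 counts per library and was not tested. *Il1a* was higher in livers labelled MKO (2.65 to 4.69 CPM against 1.18 to 2.56 CPM, log2 fold change 1.08, edgeR adjusted p = 0.403), *Il1b* overlapped (-0.46), and the receptor gene *Lifr* was higher without overlap (0.59). Among transcription factors and feedback inhibitors, 2 of 14 passed the thresholds of the study, both lower in MKO (0.856% of all genes were). *Socs3*, a target of STAT3, had 40.7, 16.4 and 38.0 CPM in f/f and 6.45, 8.93 and 20.8 CPM in MKO (-1.40, SE 0.52, edgeR adjusted p = 0.437). It was high in f/f replicates 1 and 3, the livers with the highest *Lcn2*. *Egr1* was even within groups, with 35.0, 36.4 and 28.8 CPM against 11.04, 15.3 and 16.5 CPM (-1.23, SE 0.17, edgeR adjusted p = 0.303), with f/f replicate 2 the highest. Of the 10 receptors and partners, 0 were lower or higher at an unadjusted p under 0.05. No listed gene had an adjusted p under 0.05 in liver by edgeR.

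**Figure D5:**
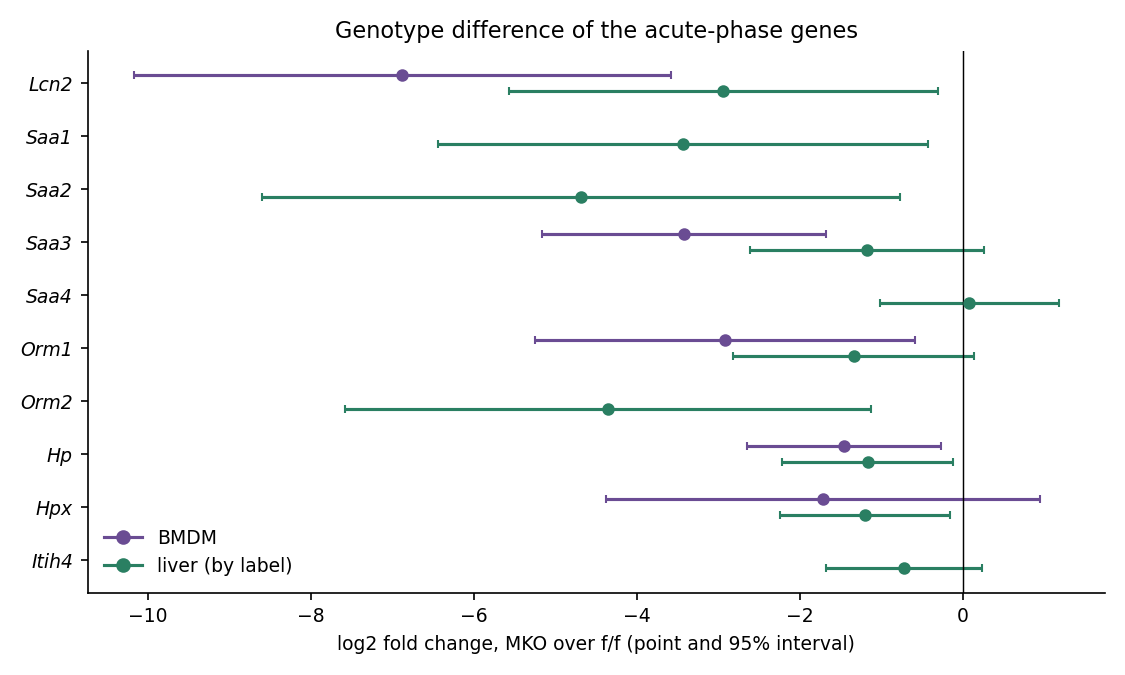
Log2 fold change of MKO over f/f for each member, with the 95% interval of the edgeR fit (n = 3 per group), for BMDMs and for livers by label. Members too low in BMDMs have a point for liver only, and the *Lcn2* points are at -6.88 in BMDMs and -2.94 in liver.

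The genotype differences in BMDMs and in liver were set against each other for the 5 members tested in both. For *Lcn2* the difference in liver minus that in BMDMs was 3.94 on the log2 scale (SE 1.69, 95% interval 0.20 to 7.68, edgeR adjusted p = 0.324). For *Saa3* it was 2.24 (SE 0.97, interval 0.09 to 4.39, edgeR adjusted p = 0.329). For *Orm1*, *Hp* and *Hpx* it was 1.56, 0.30 and 0.51, with intervals that included 0. With edgeR, 0 of 5 passed an adjusted p under 0.05 (0.0058% of 17246 genes did), 2 were higher by at least 2-fold with an unadjusted p under 0.05 (3.96% of genes), and DESeq2 called 0 (1.99% of genes as higher). Those 2 became 0 without any of BMDM f/f replicate 3, BMDM MKO replicates 1 or 2, liver f/f replicates 2 or 3 or liver MKO replicate 3, became 1 without BMDM f/f replicate 2 or MKO replicate 3, and became 3 without liver f/f replicate 1. Shares of all genes are not at hand for these fits. The difference of *Hp* had the opposite sign without BMDM f/f replicate 3 (-0.32) or liver f/f replicate 2 (-0.02), and that of *Hpx* without BMDM f/f replicate 2 (-0.27) or BMDM MKO replicate 1 (-0.06). Without BMDM f/f replicate 3 the difference of *Lcn2* was 2.54 and that of *Saa3* 1.45. This comparison also rests on the liver labels. With the liver genotype headings exchanged, a fit added after seeing the data, the difference would be 9.80 for *Lcn2* (SE 1.91, edgeR adjusted p = 0.187) and 4.59 for *Saa3* (SE 1.00, adjusted p = 0.192). That fit adds the differences of the 2 tissues, which had the same sign for these members, and none passed an adjusted p under 0.05.

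Levels were compared between BMDMs and liver in *Tshr* f/f, which also differ in diet, hormone and culture. *Lcn2* had overlapping ranges, 22.5 to 898 CPM in BMDMs and 91.6 to 1286 CPM in liver (log2 difference 1.28, SE 1.16, edgeR adjusted p = 0.343). That difference was -0.45 without liver f/f replicate 1, 2.66 without BMDM f/f replicate 3 and 0.72 without BMDM f/f replicate 1. In the order of its 4 groups, *Lcn2* was lowest in MKO BMDMs (2.69 to 4.60 CPM), then in MKO livers (28.1 to 137 CPM), and the 2 f/f groups and the MKO livers overlapped. *Saa3* was lower in liver, with a log2 difference of -8.36 (SE 0.93, edgeR adjusted p = 1.65e-05). *Hp* was higher in liver by 5.42 (edgeR adjusted p = 1.83e-05), *Orm1* by 11.15 and *Hpx* by 14.46, all at an adjusted p under 0.05. *Saa1* had 0.05 to 1.11 CPM in f/f BMDMs and 360 to 8155 CPM in f/f livers. Against 3 counts per BMDM library, with CPM scaled within each tissue, the lowest f/f liver was at least 1178-fold higher for *Saa2*, 4922-fold for *Saa4*, 297-fold for *Orm2* and 26408-fold for *Itih4*. By edgeR *Hp*, *Orm1* and *Hpx* were higher in liver and *Saa3* lower, as were 36.6% and 32.7% of all genes. *Saa1*, *Saa2*, *Saa4*, *Orm2* and *Itih4* were too low in BMDMs to be tested there. They entered this fit through liver, so they are not counted and are given by their levels or bounds only. With library size alone in place of TMM the median of all genes moved from 0.03 to -0.79, and these directions held.

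To compare levels between genes, CPM was divided by the length in kilobases of all annotated exons of each gene together (GENCODE M21). This length was 2478 bases for *Saa1* and 2518 for *Saa2*, whose longest coding transcripts have 609 and 652 bases. For *Orm1* both lengths were 775 bases. The order of genes below therefore depends on the length used. With transcript length in its place, *Saa1* and *Saa2* would stand higher against *Orm1*. In livers labelled f/f, *Hp* had the highest median level (5437 CPM per kb, range 3536 to 12152), then *Hpx* (4814), *Orm1* (1305), *Itih4* (1091), *Saa2* (763), *Saa1* (630), *Saa4* (534), *Orm2* (213), *Lcn2* (85.6) and *Saa3* (6.12). In livers labelled MKO the medians were 3025 for *Hp*, 2473 for *Hpx*, 681 for *Orm1*, 543 for *Itih4* and 513 for *Saa4*. *Saa1* (71.1), *Orm2* (35.5), *Saa2* (27.1), *Lcn2* (16.5) and *Saa3* (1.69) followed. *Saa2* and *Saa1* were thus above *Saa4* by their medians in f/f livers and below it in MKO livers. In f/f livers they ranged from 40.4 to 3557 and from 145 to 3291 CPM per kb, so neither differed from *Saa4* (203 to 720) beyond its spread. In the f/f order the ranges of neighbours overlapped apart from *Lcn2* with *Saa3*. In the MKO order they did not overlap between *Hp* and *Hpx*, *Hpx* and *Orm1*, *Saa4* and *Saa1*, *Saa1* and *Orm2*, or *Lcn2* and *Saa3*. In BMDMs the order of the 5 members tested was the same in both genotypes, with medians in f/f and MKO of 2653 and 287 CPM per kb for *Saa3*, 217 and 87.1 for *Hp*, 107.5 and 1.11 for *Lcn2*, 1.68 and 0.218 for *Orm1*, and 0.333 and 0.0890 for *Hpx*.

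The genes most like *Lcn2* were ranked by Pearson's r of log2 CPM within each kind of sample, over 6 libraries that differed in depth and scaling factor. In liver the 5 highest were *Eif4g1*, *Sec16a*, *Ttc37*, *Slc3a1* and *Epb41* (r of 0.997 to 0.989, among 12664 genes). *Saa1* ranked 36 (0.973), *Itih4* 55, *Hp* 72, *Saa2* 101, *Orm2* 103, *Hpx* 149, *Orm1* 270 and *Saa3* 485, whereas *Saa4* had an r of -0.04. In BMDMs the 5 highest were *Gm13012*, *Ppme1*, *Pgd*, *Rapgef1* and *Elk3* (0.998 to 0.994, among 13012 genes), and *Saa3* ranked 59 (0.971) and *Hp* 1420 (0.815). These are descriptions over few libraries.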

How the data were processed

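The values analysed are read counts per gene, deposited by the authors as a table of raw counts for 12 libraries. Libraries were strand-specific (TruSeq) and sequenced on a NovaSeq. Reads were handled with Skewer and FastQC 0.11.2, and the submitters' processing notes name STAR, StringTie and mm10. The counting program, annotation and strand setting are not given in the sources used here. The study took differential genes from the MARS model of DEGseq.

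Groups came from the sample titles. Each tissue was tested apart with edgeR 4.0.16 (filterByExpr, TMM, robust quasi-likelihood) in R 4.3.3, two-sided, with Benjamini-Hochberg adjustment over all genes tested, and 4 group means over all 12 libraries gave the comparisons of BMDMs with liver. The SE is the log2 fold change over the square root of F. DESeq2 1.42.0 and MARS (0 set to 0.5) were alternatives. The script was tested on simulated data. A gene at or under 3 counts in each library of a group is given as a bound.

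Named beside the 10 members were, per list and tissue, up to 4 genes with the smallest p, *Il6*, *Il1a*, *Il1b*, *Socs3*, *Egr1*, *Orm3* and *Serpina3n*, and the 5 genes most like *Lcn2* (mean of at least 1 CPM). Other listed genes were named after their values were seen. The members and lists were chosen with earlier results of these data known. No 2 libraries of the same group were alike within counting noise, and pairs across groups were not compared. Sequences and gene positions came from RefSeq (GRCm38.p6) and GENCODE M21 (GRCm38). Python 3.11.15 and matplotlib 3.10.9 drew the figures.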

Additional observations from a re-analysis of the deposited data

How the results depend on the processing

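Each comparison was repeated with RLE, upper-quartile and library-size scaling, without a filter or with one at 50 counts on average, DESeq2, a replicate block, all 12 libraries in a fit, MARS, the letter of the liver sample ID as a covariate, and each library left out. The members at an adjusted p under 0.05 were 0 in BMDMs and 0 in liver under all of these except DESeq2 (4 and 2) and MARS (7 and 10), which takes no account of the spread between replicates. In BMDMs the 4 of DESeq2 and the 4 of edgeR at the thresholds of the study include *Orm1*, which entered the test through f/f. At those thresholds MARS gave 7 members in BMDMs in place of 4, and it called 7.29% of all genes as lower and 9.48% as higher. The numbers with a library left out were 2 to 4 in BMDMs, 0 to 9 in liver and 0 to 3 for the difference between the tissues. For these fits no share of all genes is at hand. Same-numbered libraries correlated at 0.10, 0.01 and 0.10 in BMDMs and -0.06, 0.22 and -0.02 in liver, so a pairing by number was neither shown nor excluded. With the replicate block, 3 members were at the thresholds of the study in BMDMs (4.76% of all genes were lower and 3.69% higher). In liver 1 was (6 without the block), against 0.704% of all genes lower and 0.611% higher. For the difference between tissues 0 were (2 without the block), against 4.42% of all genes lower and 3.58% higher. No member passed an adjusted p under 0.05 with the block in those comparisons. With the liver genotype headings exchanged, 5 members passed the thresholds of the study for the difference between tissues. No share of all genes is at hand for that fit. No direction changed under another scaling, filter, tool or block. With a library left out, the liver difference of *Saa4* ran from -0.30 to 0.47, the difference between tissues from -0.32 to 0.93 for *Hp* and from -0.27 to 2.12 for *Hpx*, and *Lcn2* in liver against BMDMs from -0.45 to 2.66. The cause was not tested beyond the smaller number of samples. *Lcn2* itself ran from -7.41 to -5.47 in BMDMs and from -3.90 to -1.21 in liver. With 3 libraries per group and a 14.0-fold range of *Lcn2* in livers labelled f/f, differences of this size were near the limit of what could be shown, and members with under 3 counts in BMDMs were not detectable at this depth.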
